A study of Homo sapiens with 4 samples.

Results

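Actin and tubulin are the building blocks of the 2 cytoskeletal polymers described here, and the genes analysed encode cytoplasmic actins, proteins that bind actin, and tubulins. The peaks were those of a PRMT5 RIP-seq list whose gene identifier matched 1 of 10 chosen genes: ACTB, ACTG1, CFL1, PFN1, TMSB10, TUBA1A, TUBA1B, TUBA1C, TUBB and CORO1A. All 10 genes had at least 1 peak, and they held 27 of the 18993 peaks and 10 of the 8478 gene identifiers in the list. The rule names the genes and uses no measured value, but the genes were chosen with earlier results of these data known, and the list itself holds only regions that the authors called as peaks.

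The libraries came from Jurkat, a human T cell line derived from a leukemia, and every group was stimulated with PHA (a plant lectin that activates T cells) for 48 hours and fixed with UV light, given in the labels as 264 nm and 400 mJ. In UV cross-linking RIP-seq, RNA fixed to a protein by UV light is recovered with an antibody and sequenced beside RNA from the whole lysate, the input. Here PRMT5, an arginine methyltransferase, was recovered through FLAG in 2 PRMT5 RIP libraries, with 2 input libraries for comparison, and no immunoprecipitation without PRMT5 was analysed here. The deposited list gives 1 pooled value of RPM (reads scaled to the number of reads in the library) per peak for PRMT5 RIP and 1 for input. No value below therefore has a replicate spread, no test over replicates could be run from these values, and the depth of each library is unknown. The p-values of the authors' own comparison, which the list also holds, were not used. Of 6 T cell marker genes checked against the labelled cell type, CD3D had 453 RPM after PRMT5 RIP against 417 RPM in input, and LCK and CD247 also had peaks. No peak was assigned by symbol to CD3E, CD3G or TRAC, nor to the B cell, monocyte and erythroid markers MS4A1, CD14 and HBB.

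Actin exists in cells as free monomers and as filaments, and the balance between the states is set by proteins that hold, recharge or release monomers. Tubulin forms dimers of an α and a β chain that assemble into microtubules. In activated T cells, both polymers are known to be remodelled at the contact with the antigen-presenting cell.

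The transcript starts of several members are shown because a peak began within 10 nt of each, or, in CFL1, ran across it. The first TUBB peak also ran across an annotated start, which is not shown. Each line gives 80 bases of RefSeq sequence of GRCh38.p14 in the direction of the gene, 50 before the annotated start and 30 from it, and capitals mark the bases that lie inside the first peak touching the gene.
PFN1, chr17:4948501-4948580 (-): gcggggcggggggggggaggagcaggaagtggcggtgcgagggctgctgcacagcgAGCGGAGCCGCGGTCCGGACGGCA
CFL1, chr11:65858151-65858230 (-): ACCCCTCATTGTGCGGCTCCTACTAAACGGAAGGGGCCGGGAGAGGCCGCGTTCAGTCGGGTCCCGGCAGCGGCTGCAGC
TMSB10, chr2:84905606-84905685 (+): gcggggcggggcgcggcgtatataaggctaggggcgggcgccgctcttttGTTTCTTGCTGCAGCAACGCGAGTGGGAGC
CORO1A, chr16:30183552-30183631 (+): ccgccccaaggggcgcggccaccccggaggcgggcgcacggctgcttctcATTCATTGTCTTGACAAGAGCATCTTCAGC
TUBA1B, chr12:49131366-49131445 (-): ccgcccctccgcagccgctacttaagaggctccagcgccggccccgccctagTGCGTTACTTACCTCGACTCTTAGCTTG
TUBA1C, chr12:49265032-49265111 (+): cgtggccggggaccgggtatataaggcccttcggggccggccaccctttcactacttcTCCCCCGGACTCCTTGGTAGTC
ACTG1, chr17:81512770-81512849 (-): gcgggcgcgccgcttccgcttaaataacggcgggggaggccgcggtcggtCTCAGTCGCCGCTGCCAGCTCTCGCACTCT
The start windows of RefSeq matched 9 of the 10 genes, with 12 windows in all, and ACTB was not matched. In these windows of 300 bases, searched on both strands, the CArG box, a motif bound by serum response factor, was found in 1 of the 12, that of ACTG1 at position -94, and in 1.29% of 35116 windows of all genes. Other motifs were searched in the same way. The GC box was found in 9 of the 12 and in 45.0% of all windows, and the CCAAT box in 7 and in 34.6%. The TATA box, searched as TATAAA only, was found in 0 and in 11.5%. These counts are of windows and not of genes, since TUBA1C and TUBB had several windows each. The TUBA1C windows of the starts at 49227926 and 49228019 overlap, and their CCAAT boxes, at -104 and -197, are the same box. The median GC content was 66.8% in the 12 windows and 58.7% in all windows, and its part in the motif counts was not tested.

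The first peaks largely followed the annotated transcript starts. In 7 of the 10 genes the first peak began within 10 nt of a RefSeq start, which was so in 22.9% of 6161 named genes. The peaks of ACTG1, TMSB10 and CORO1A began on the first base, and those of TUBA1B, PFN1 and TUBA1C 2 nt, 6 nt and 8 nt after it. For TUBA1C this was the start at position 49265082, since the peak began 37164 nt after the annotated gene start, and the stretch between held no peak of the gene. The ACTB peak began 1 nt before the start. Among the exceptions, the first TUBA1A peak began 58 nt inside the gene, the first TUBB peak began at position -2717 relative to the gene start, and a weak CFL1 peak lay wholly upstream, from position -1069 to -445. At the other end, the last peaks of PFN1, TMSB10, TUBA1B and CORO1A stopped exactly on the annotated gene end. An end within 10 nt was found in these 4 of 10 members and in 2.30% of the named genes. Neither this background nor that of the starts was limited to genes of like abundance. The median summed input was 464 RPM for the members and 2.28 RPM for all genes of the list, and the part of abundance was not tested. All 27 peaks were listed as 1 uninterrupted block, so wide peaks may include introns, and which exons or UTRs they cover was not analysed here.

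The 5′ peaks of the 2 cytoplasmic actin genes had ratios of PRMT5 RIP over input RPM of 4.13 and 0.998. ACTB, which encodes β-actin (ENSG00000075624, minus strand of chromosome 7, 5527148 to 5530601), had 3 peaks. The first, from 5529929 to 5530602, had 108 RPM after PRMT5 RIP against 26.1 RPM in input (ratio 4.13). The long middle peak, from 5527984 to 5529678, held 94.6% of the input RPM of the gene and had 1072 RPM after PRMT5 RIP against 747 RPM in input (ratio 1.44). The last peak, of 200 nt and nearer the 3′ end, had 25.6 RPM after PRMT5 RIP against 16.4 RPM in input (ratio 1.56). Thus a high ratio was found at the 5′ peak of ACTB, while most of its RNA was in the middle peak.

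ACTG1, which encodes γ-actin (ENSG00000184009, minus strand of chromosome 17, 81509971 to 81512799), had no such 5′ peak. Its first peak, from 81512625 to 81512799, had 39.0 RPM in both PRMT5 RIP and input, with a ratio of 0.998. The main peak, from 81510188 to 81512374, had 902 RPM after PRMT5 RIP against 830 RPM in input (ratio 1.09). Between them lay a peak of 75 nt with a ratio of 2.87, but with only 0.89 RPM after PRMT5 RIP against 0.31 RPM in input. Over all peaks of a gene, the summed RPM ratio was 1.53 for ACTB and 1.08 for ACTG1, at input levels of 307 and 357 RPM per kb of peak. ACTG1 had the lowest summed ratio of the 10 genes, and only 3.80% of all genes in the list had a lower one.

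**Figure D1:**
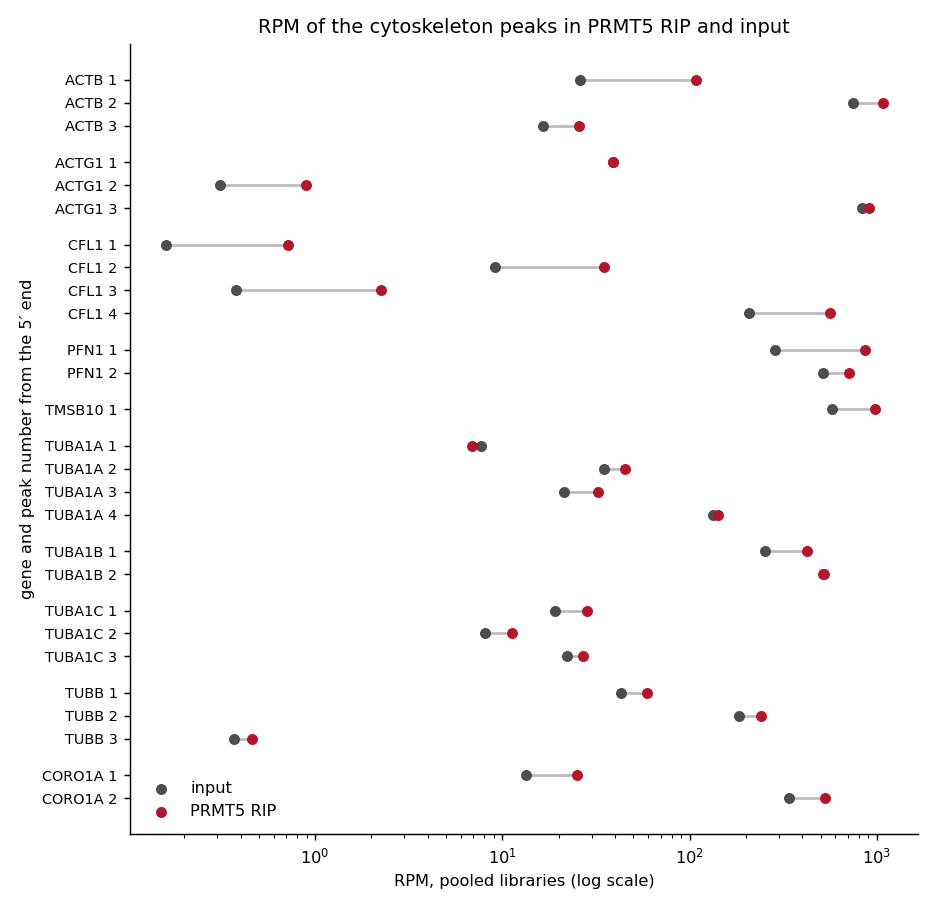
RPM of each of the 27 cytoskeleton peaks in pooled PRMT5 RIP (red) and pooled input (grey) on a log axis, with peaks numbered from the 5′ end of each gene. The lines are long for the CFL1 peaks, for the first peaks of ACTB and PFN1 and for the weak second peak of ACTG1, and PRMT5 RIP lies left of input visibly only at the first TUBA1A peak.

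Of the proteins that bind free actin, profilin loads monomers with ATP and feeds them to growing filaments. PFN1, its gene (ENSG00000108518, minus strand of chromosome 17, 4945652 to 4948530), had 2 abundant peaks that ranked in opposite order in the 2 pools. The 5′ peak, from 4947457 to 4948524, had 865 RPM after PRMT5 RIP against 285 RPM in input (ratio 3.03). At the 3′ peak, from 4945652 to 4946831, there were 711 RPM after PRMT5 RIP against 517 RPM in input (ratio 1.38). The 5′ peak therefore held 35.6% of the gene's RPM in input and 54.9% in PRMT5 RIP. The summed ratio of PFN1 was 1.96.

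Thymosin β10, a small peptide that keeps actin monomers from polymerising, is encoded by TMSB10 (ENSG00000034510, plus strand of chromosome 2). A single peak covered the whole gene, from 84905656 to 84906671, with 971 RPM after PRMT5 RIP against 574 RPM in input. This ratio of 1.69 cannot be divided along the transcript. Per kb of peak TMSB10 had the highest level of the 10 genes, with 565 RPM in input and 956 RPM in PRMT5 RIP.

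Cofilin severs actin filaments, and its gene CFL1 (ENSG00000172757, minus strand of chromosome 11, 65854673 to 65858180) had the highest summed ratio of the 10 genes. All 4 of its peaks were at least 2-fold above input. The peak across the transcript start, from 65857847 to 65858324, had 34.7 RPM after PRMT5 RIP against 9.11 RPM in input (ratio 3.81). Next came a weak peak, from 65857024 to 65857746, with 2.24 RPM after PRMT5 RIP against 0.38 RPM in input, and this ratio of 5.89 was the highest of the 27 peaks. The main peak, from 65854873 to 65856898, held 95.5% of the gene's input RPM. It had 563 RPM after PRMT5 RIP against 207 RPM in input (ratio 2.72). The peak upstream of the gene, from 65858625 to 65859249, had 0.72 RPM after PRMT5 RIP against 0.16 RPM in input (ratio 4.50). CFL1 was the one member with a summed ratio of at least 2, with 2.77, and 64.9% of all genes in the list had a lower ratio.

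CORO1A encodes coronin 1A, an actin filament-binding protein of blood cells (ENSG00000102879, plus strand of chromosome 16, 30183602 to 30189076). Its 5′ peak, from 30183602 to 30184226, had 24.97 RPM after PRMT5 RIP against 13.3 RPM in input (ratio 1.88). The second peak, from 30184327 to 30189076, ran to the gene end, with 527 RPM after PRMT5 RIP against 340 RPM in input (ratio 1.55). Neither peak reached 2-fold.

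**Figure D2:**
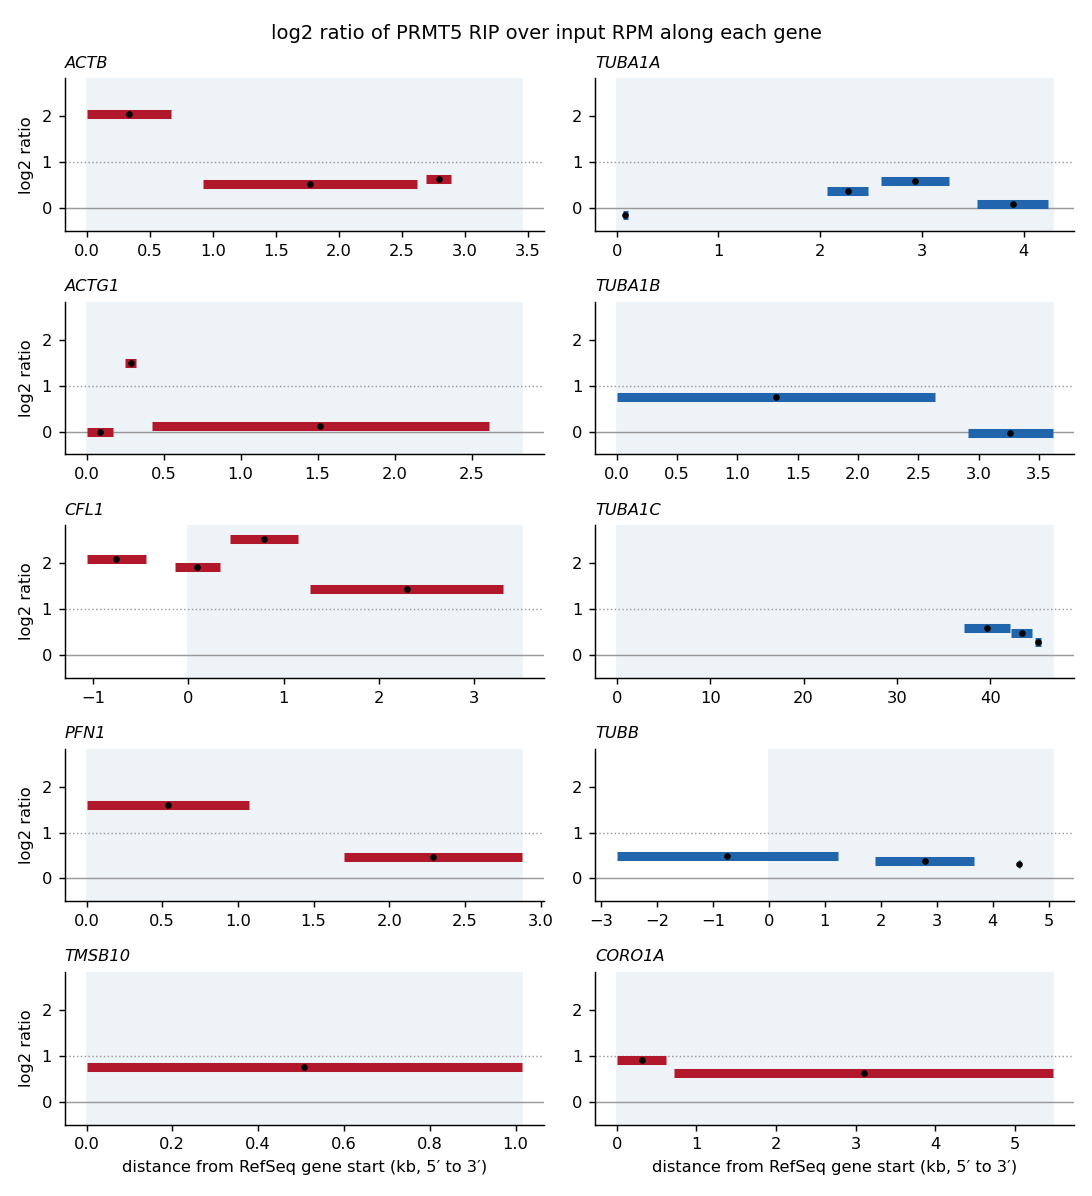
The log2 ratio of PRMT5 RIP over input RPM (vertical) against distance from the RefSeq gene start in kb (horizontal) for each gene. Bars span the peaks, dots mark their centres, shading marks the RefSeq gene, red marks actin genes and their regulators, blue marks tubulins, and the dotted line is 2-fold, above which no tubulin peak lies.

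None of the 12 tubulin peaks reached 2-fold. Their ratios ran from 0.896 to 1.68 with a median log2 ratio of 0.38, whereas the 15 peaks of the 6 actin-related genes ran from 0.998 to 5.89 with a median log2 ratio of 0.91, and 7 of them reached 2-fold. Of these 7 peaks, 4 belonged to CFL1 and 4 had an input of under 10 RPM, so the contrast rests much on 1 gene and on low levels. Among all peaks of the list 56.6% reached 2-fold, and 29.7% of those with at least 10 RPM of input did. Of the 20 cytoskeleton peaks at that input, 3 did, and these belonged to actin-related genes. In the wider lists below, 60.5% of actin-related and 65.0% of microtubule-related genes were at 2-fold. The median input was 28.6 RPM for the tubulin peaks and 39.0 RPM for the others.

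The genes of 3 nearly identical α-tubulins lie on chromosome 12. TUBA1B (ENSG00000123416, minus strand, 49127782 to 49131395) had the highest input level of them, with 232 RPM per kb of peak. Its 5′ peak, from 49128757 to 49131393, had 423 RPM after PRMT5 RIP against 252 RPM in input (ratio 1.68). The 3′ peak, from 49127782 to 49128481, had 512 RPM after PRMT5 RIP against 524 RPM in input (ratio 0.978). As in PFN1, the share of the gene's RPM in the 5′ peak was larger in PRMT5 RIP, with 45.2% against 32.4% in input.

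TUBA1A (ENSG00000167552, minus strand, 49184795 to 49189080) had 4 peaks with the lowest ratios at both ends. A peak of 50 nt near the start had 6.89 RPM after PRMT5 RIP against 7.69 RPM in input, and its ratio of 0.896 was the lowest of the 27 peaks. The 2 inner peaks had ratios of 1.29 and 1.52, with 34.9 RPM and 21.2 RPM in input. The last peak, with 142 RPM after PRMT5 RIP against 134 RPM in input, had a ratio of 1.07. TUBA1C (ENSG00000167553, plus strand, 49227926 to 49274600) was the least abundant member, with 6.36 RPM per kb of peak in input. From 5′ to 3′ its 3 peaks had ratios of 1.49, 1.38 and 1.22, at 19.0, 8.11 and 22.2 RPM in input. The summed ratios of the α-tubulin genes were 1.15 for TUBA1A, 1.21 for TUBA1B and 1.35 for TUBA1C.

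TUBB, the β-tubulin gene (ENSG00000196230, plus strand of chromosome 6, 30720352 to 30725422), had ratios between 1.24 and 1.39 at its 3 peaks. The first peak, from 30717635 to 30721581, had 59.5 RPM after PRMT5 RIP against 42.7 RPM in input (ratio 1.39). The main peak, from 30722257 to 30724013, had 240 RPM after PRMT5 RIP against 184 RPM in input (ratio 1.31). A last peak of 25 nt had 0.46 RPM after PRMT5 RIP against 0.37 RPM in input (ratio 1.24).

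Of the 27 cytoskeleton peaks, 7 (25.9%) were at least 2-fold above input, against 56.6% of all peaks in the list. Of the 7, 4 belonged to CFL1 and 1 each to ACTB, ACTG1 and PFN1. Low levels made up much of this count, since 4 of the 7 had an input of under 10 RPM. The median log2 ratio was 0.58 for the 27 peaks and 1.10 for all peaks. At 3 of the 27 peaks PRMT5 RIP had fewer RPM than the input (11.1%), namely the first peaks of ACTG1 and TUBA1A and the last of TUBA1B, against 3.84% of all peaks.

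These peaks were far more abundant than most of the list, with a median input of 34.9 RPM against 0.830 RPM. In the list the share of peaks at 2-fold was lower at high input. From 10 RPM of input upward, 3 of 20 cytoskeleton peaks (15.0%) and 29.7% of all such peaks reached 2-fold. From 100 RPM upward this was so for 2 of 11 cytoskeleton peaks (18.2%) and for 27.2% of all 423 such peaks, and the median log2 ratio was 0.52 in both. The part of abundance in the lower ratios was not tested. Summed over the 10 genes, the RPM was 7375 in PRMT5 RIP and 4854 in input, a ratio of 1.52, and the ratio over all peaks of the list was 1.54. The 10 genes thus took 0.992% of the input RPM in peaks and 0.976% of the PRMT5 RIP RPM. By summed RPM, 1 of 10 genes was at least 2-fold above input, against 62.7% of all genes and 32.7% of the 2269 genes whose summed input was 10 RPM or more. The median log2 ratio was 0.52 for the members, 0.78 for the genes with that summed input and 1.20 for all genes.

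**Figure D3:**
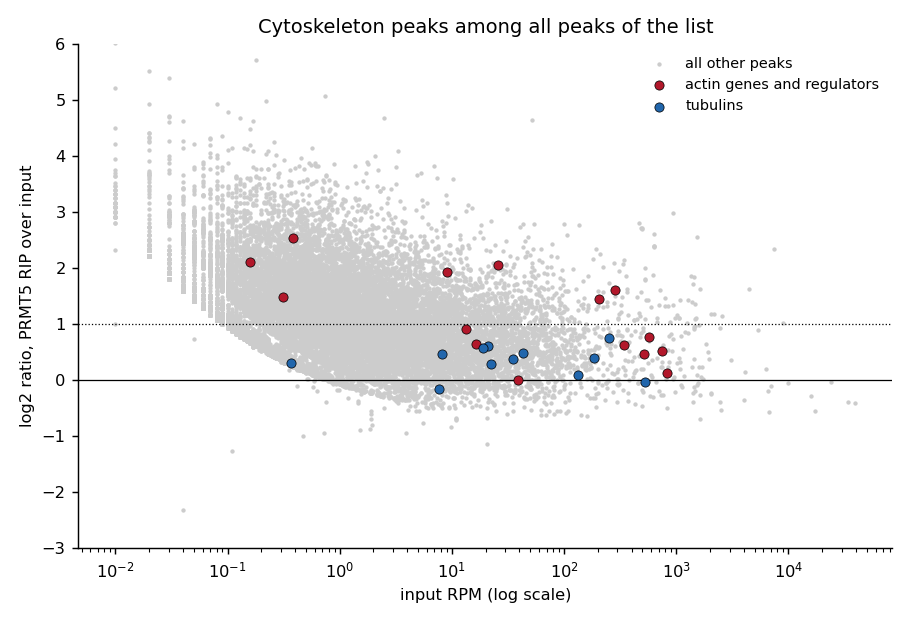
The log2 ratio of PRMT5 RIP over input RPM (vertical) against input RPM on a log axis (horizontal) for all peaks (grey), the 15 peaks of actin genes and regulators (red) and the 12 tubulin peaks (blue). The solid line is equal RPM and the dotted line 2-fold, 11 peaks with 0 RPM in input and 2 beyond the axis are not drawn, and most cytoskeleton peaks lie to the right at low ratios.

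Ratios along the gene were compared in the 9 genes with several peaks. The 5′-most peak had a higher ratio than the 3′-most peak in 7 of the 9, or 77.8%, and in 69.7% of the 4645 such genes of the list, so the members were near the background. The difference in log2 ratio was 1.41 in ACTB, 1.14 in PFN1, 0.78 in TUBA1B and 0.66 in CFL1, and its median was 0.29 over the 9 genes and 0.41 over all. ACTG1 and TUBA1A went the other way, with differences of -0.12 and -0.25. In TUBB and CFL1 the end peaks include some of under 1 RPM. With only peaks whose input reached 1 RPM, the count was again 7 of 9, beside 71.8% of such genes, and with a pseudocount of 1 it was 6 of 9, beside 68.0%. Without the peaks that overlap one on the opposite strand, it was 4 of 6 genes, beside 71.0% of all such genes.

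**Figure D4:**
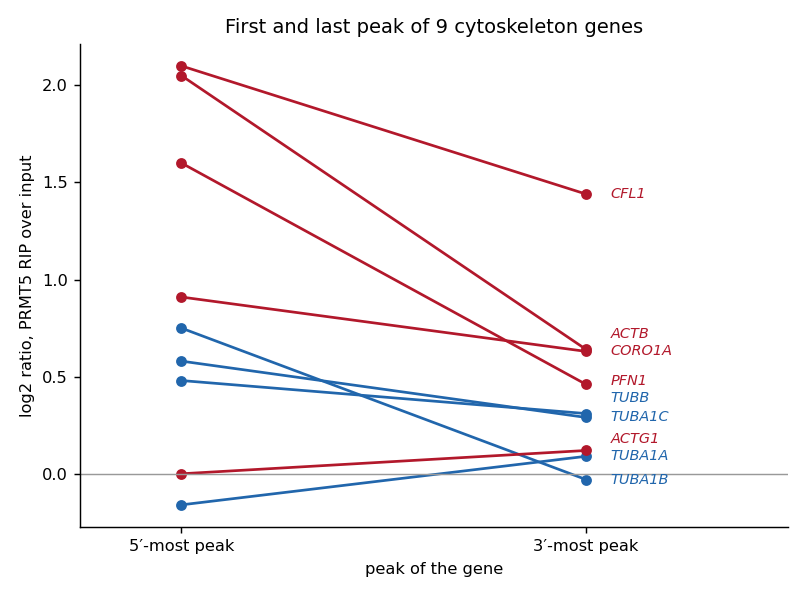
The log2 ratio of PRMT5 RIP over input RPM at the 5′-most and 3′-most peak of each of the 9 genes with 2 or more peaks, with actin genes and regulators in red and tubulins in blue. Lines of ACTB, PFN1, TUBA1B and CFL1 descend most, and those of ACTG1 and TUBA1A ascend.

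In 4 genes, peaks were also listed on the opposite strand, under other identifiers. This touched 6 of the 27 peaks (22.2%), against 18.1% of all peaks. Across from the last TUBA1C peak lay a minus-strand peak of the same width, with 27.6 RPM after PRMT5 RIP against 22.5 RPM in input, 102% of the TUBA1C values in both. Similarly, a peak of CORO1A-AS1, an antisense gene, lay over the first CORO1A peak with 102% of its PRMT5 RIP RPM and 103% of its input RPM. Other overlaps were unequal. A second CORO1A-AS1 peak of 315 nt inside the same CORO1A peak had 0.35 RPM after PRMT5 RIP and was listed at 0 in input, and the peak opposite the 5′ peak of TUBA1B had 38.0% of its PRMT5 RIP RPM and 41.2% of its input RPM. Across from the 3′ peak of TUBA1B, ENSG00000258017 had 443 RPM after PRMT5 RIP against 457 RPM in input (ratio 0.969) beside 0.978 for TUBA1B itself. Opposite the main TUBB peak, ENSG00000272540 had 129 RPM after PRMT5 RIP against 80.6 RPM in input (ratio 1.60) beside 1.31. How strand entered the authors' counting is not stated in the sources used here, so reads of these genes and of their antisense partners cannot be told apart. No opposite-strand peak overlapped ACTB, ACTG1, CFL1, PFN1, TMSB10 or TUBA1A.

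Reads may also be shared between ACTB and ACTG1, among TUBA1A, TUBA1B and TUBA1C, and with pseudogenes, wherever their sequences are alike. How alike they are within the peaks was not checked here. RefSeq lists pseudogenes named after several members, and peaks of other identifiers touched 1 of 14 named for ACTB, 2 of 21 for ACTG1, 1 of 10 for PFN1, 1 of 11 for TUBB and none of 8 for CFL1 or of 2 for TMSB10. How the authors placed such reads is not given in the sources used here, so the levels of the actin and tubulin genes are uncertain to that degree.

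Other genes of the same systems were counted beside the 10 members. Of 53 other actin-related genes, 38 were found by symbol, and 23 of these (60.5%) were at least 2-fold above input by summed RPM. Of 24 other microtubule-related genes, 20 were found and 13 (65.0%) were at 2-fold. The share among all genes was 62.7%, and the median log2 ratios were 1.03 and 1.13 beside 1.20. With an input of 1 RPM or more the shares were 57.1% and 63.2%, beside 49.5% of all genes at that input. Summed RPM in PRMT5 RIP lay below input in 0 of these 58 genes and in 2.22% of all genes, so this count says nothing particular of the lists. The median input of the 58 genes was 17.8 RPM against 464 RPM for the 10 members, and the part of this difference was not tested.

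Among the actin-related genes whose input reached 1 RPM, TPM4, a tropomyosin that coats filaments, had the highest ratio, 5.07, with 142 RPM after PRMT5 RIP against 28.1 RPM in input. It was followed by DIAPH1, a formin that elongates filaments, with a ratio of 3.99 at only 2.62 RPM in input. Next came MYL6, a myosin light chain, with 3.62 at 121 RPM in input. The lowest ratio was 1.05 for MYL12B, a regulatory myosin light chain. Thymosin β4, the close relative of TMSB10 encoded by TMSB4X, had 1794 RPM after PRMT5 RIP against 1505 RPM in input (ratio 1.19). The third lowest was WDR1, a partner of cofilin in filament disassembly, with 1.33, less than the 2.77 of CFL1.

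Among the microtubule-related genes under the same input limit, the highest ratio was 3.73 for the β-tubulin gene TUBB4A, at only 2.32 RPM in input. It was followed by the kinesin heavy chain gene KIF5B with 3.40 and by MAPRE2, which encodes a protein of microtubule ends, with 3.39. Their inputs were as low, with 2.8 RPM for KIF5B and 2.32 RPM for MAPRE2. STMN1, whose product stathmin binds free tubulin, was the lowest with 1.18, at 336 RPM in input. DYNLL1, a dynein light chain gene, had 1.40, and TUBG1, the γ-tubulin gene that nucleates microtubules, had 1.43.

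**Figure D5:**
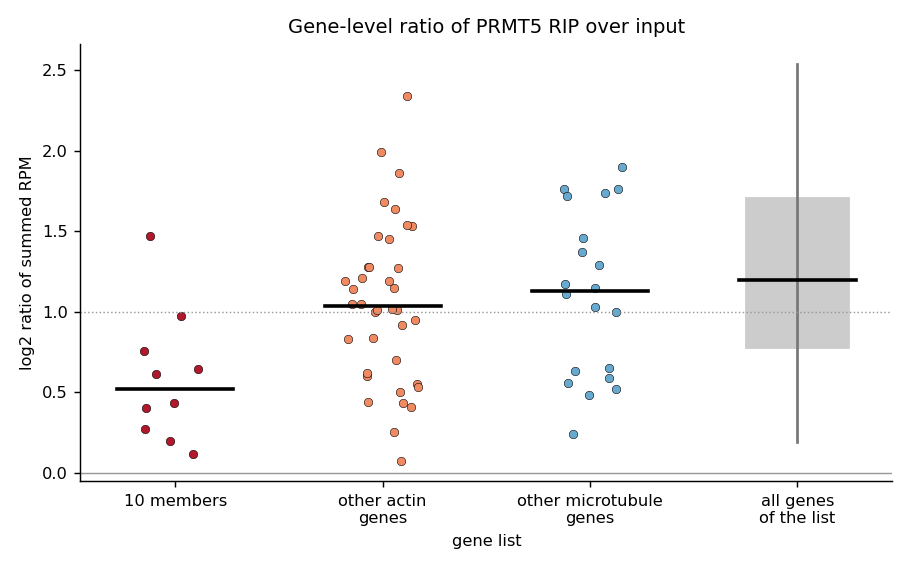
The log2 ratio of summed PRMT5 RIP over summed input RPM per gene (vertical) for the 10 members, 38 other actin-related genes, 20 other microtubule-related genes and all genes. Points are genes, horizontal bars are medians, and for all genes the box spans the middle 50% and the line the 5th to 95th percentile. The members' median of 0.52 lies below the others, at a median input of 464 RPM against 2.28 RPM for all genes.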

How the data were processed

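Per the labels, 2 PRMT5 RIP and 2 input libraries were sequenced, and the submitters' processing notes name fastp, HISAT2 and hg38. The peak caller, annotation and strand setting are not given in the sources used here. The authors deposited 1 list of peaks with RPM values pooled per group and rounded to 0.01, and with log2 fold changes, p-values and FDR of their own comparison, which were not used.

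A peak with several identifiers counted for the first. Symbols came from the part of the study's gene name table used here, otherwise from the RefSeq gene (GRCh38.p14) touched on the same strand by over 50% of the identifier's peaks. Of 8478 identifiers, 6163 had a symbol, and 687 of 689 named in both ways had the same one. Log2 ratios used a pseudocount of 0.01, and ratios used none. Positions count from 1. A fold of 2 was used to describe peaks, with no test. The functions were checked on simulated data. All 10 members were named, and of each wider list the 3 highest and 3 lowest genes with at least 1 RPM in input. Members and lists were chosen with earlier results of these data known. Scripts ran in Python 3.11.15 (pandas 2.3.3, matplotlib 3.10.9, numpy 2.4.6).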

Additional observations from a re-analysis of the deposited data

How the results depend on the processing

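No paired analysis was possible because the list holds 1 pooled value per group and peak, which also kept single replicates from being omitted in turn. The 7 of 27 peaks at 2-fold became 13 at 1.5-fold. They became 4 when input had to reach 1 RPM, which also removed some member peaks. The median log2 ratio of 0.58 was 0.57 and 0.53 with pseudocounts of 0.1 and 1, 0.52 with that input minimum, and 0.60 without peaks that overlap the opposite strand. The 1 gene at 2-fold became 2 by the median of the peak ratios, 5 at 1.5-fold and 0 at 3-fold. Without opposite-strand overlaps, the 5′ peak was higher in 4 genes of the 6 that then had 2 or more peaks. The 36 of 58 other cytoskeleton genes at 2-fold became 10 at 3-fold. The shares of all peaks and genes at these changed settings of the 2-fold counts are not given here. These counts therefore cannot be read against the whole list. TUBA1B changed from a log2 ratio of 0.27 to -0.03 at its peak of highest input RPM, while PFN1, with 0.97, had 0.46 there. The backgrounds of at least 10 and 100 RPM were chosen after seeing the data. Depth per library is unknown, which limits peaks of under 1 RPM most.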
